A study of Mus musculus with 2 samples.

Results

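The cells described here were the astrocytes of unsorted mouse brain. They were picked by a marker rule: a cell needed a unique molecular identifier (UMI, the tag that marks 1 captured RNA molecule) of at least 4 of 10 astrocyte genes, and of at most 2 of 6 oligodendrocyte genes (Mog, Mag, Mobp, Ermn, Opalin and Cldn11). The 10 genes were Aqp4, Gja1, Slc1a2, Slc1a3, Ntsr2, Gjb6, Slc4a4, Gpr37l1, Fgfr3 and Slc6a11. The rule held for 811 of 9367 cells (8.66%, exact Clopper-Pearson 95% interval 8.10 to 9.25). Cells were counted if 500 genes or more were seen in them and mitochondrial UMIs made up no more than 10%.

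The series holds 2 pooled single-cell RNA samples of mouse brain made on a droplet platform, a total brain sample and a sample sorted by flow cytometry. The total brain sample joined wild type mice and STING knockout mice (WT and STING-KO), males and females, aged 2 and 24 months, although the age label prints 240 for the older mice. The sorted sample joined male WT and STING-KO mice aged 3 and 12 months. Per the design text 2 animals were grouped per genotype and age. STING, encoded by Tmem173, is the adaptor that passes on the detection of DNA in the cytosol. The labels do not name the knockout allele. Both samples went through enzymatic digestion before capture. Barcodes of total brain end in 1 of 4 suffixes, but which age, genotype or sex each suffix stands for is not stated in the labels or files used. The members therefore could not be compared between young and old or between WT and STING-KO. There was 1 total brain sample and no replicate, so no test was made, and every interval printed here is a 95% interval that covers counting error only.

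Astrocytes are glial cells that wrap synapses and blood vessels. They take up glutamate and GABA from the synapse, turn glutamate into glutamine, buffer potassium and water, store glycogen, and supply neurons with lipids and cholesterol. Neighbouring astrocytes are joined by gap junctions, and astrocytes of different brain regions keep region-specific transcription factors into adulthood.

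The label was checked against markers of 10 other cell classes, with the same requirement of at least 4 markers of a class. The lists held 10 markers for neurons, precursors, endothelial cells and microglia, and 5 for erythroid cells. They held 8 for mural, choroid plexus, ependymal, neuroblast and fibroblast classes, so the rules were not equally strict. Of the 811 cells, 378 (46.6%) met at least 1 of these other rules. The neuron rule was met by 216 (26.6%), the endothelial rule by 153 (18.9%), the microglia rule by 99 (12.2%), the mural cell rule by 63 (7.77%) and the oligodendrocyte precursor rule by 30 (3.70%). Among the cells that were not chosen, 46.6% met the neuron rule, 10.4% the endothelial rule, 11.9% the microglia rule, 2.45% the mural rule and 1.88% the precursor rule. The erythroid rule was met by 48 of the 811 cells (5.92%, and 3.00% of the rest), the fibroblast rule by 34 (4.19%, and 0.795%), the ependymal rule by 16 (1.97%, and 1.51%), the choroid plexus rule by 9 (1.11%, and 3.79%) and the neuroblast rule by 2. The endothelial, mural, precursor, erythroid and fibroblast rules were thus met by a larger share of the chosen cells than of the rest, the neuron and choroid plexus rules by a smaller share, and the microglia rule by nearly the same share. Some cells met several rules: 220 met 1 other rule, 81 met 2, 43 met 3, 16 met 4, 13 met 5 and 5 met 6.

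Cells that met another rule were deeper. The 433 that met no other rule had a median of 1364 UMIs, 972 genes and 0.505% mitochondrial UMIs, while the 378 that met another rule had a median of 4786 UMIs, 2626 genes and 4.14% mitochondrial UMIs. Ordered by depth, 10.3% of the 203 shallowest cells (612 to 1248 UMIs) and 90.6% of the 203 deepest (5171 to 85290 UMIs) met another rule. The 378 cells carried 83.3% of the 4904671 UMIs of the chosen cells and the 433 carried 16.7%. When each cell was thinned at random to 1000 UMIs before the rule was applied, 425 of 6968 cells met it (6.10%), and 59 of them (13.9%, 10.7 to 17.5) met another rule. Without thinning, 371 of the 680 chosen cells that were deep enough (54.6%) met another rule, and 131 chosen cells were too shallow to enter. No doublet caller was run, and the parts of doublets, of free RNA and of depth were not tested. Below, the 433 cells are called single-class astrocytes and the 378 other-rule cells. This division was made after values had been seen, and markers of the other classes are low in single-class astrocytes by its construction.

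**Figure D1:**
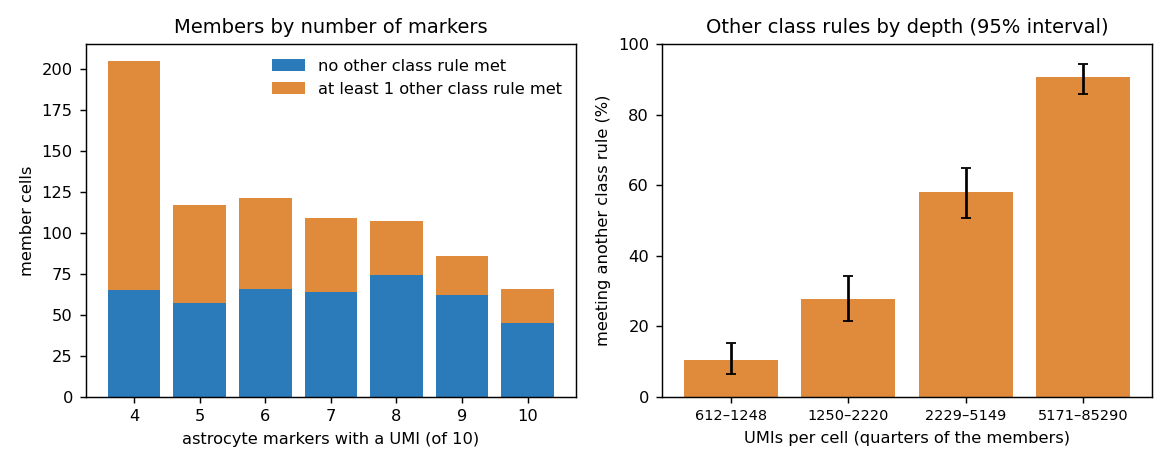
Left, the 811 chosen cells by the number of astrocyte markers with a UMI (4 to 10 of 10), divided into cells that met no other class rule (433, blue) and cells that met at least 1 (378, orange). Right, the percentage of chosen cells that met another rule in 4 bins of depth, with exact 95% intervals: it was 10.3% in the shallowest and 90.6% in the deepest bin.

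The requirement for 4 markers sat on a slope. Of the 205 cells with exactly 4 markers, 68.3% met another rule, and of the 363 cells with 3 markers that fell just outside, 81.8% did. The share was 51.3% at 5 markers, 41.3% at 7 and 31.8% at 10. Just inside, Slc1a2 stood at 540 CPM (UMIs of the gene per 1000000 UMIs of the set, the unit used for every level here) and the endothelial gene Cldn5 at 3061. Just outside, Slc1a2 stood at 357 and Cldn5 at 2402. The 65 single-class cells with 4 markers had Slc1a2 at 3391 and Cldn5 at 97.6. Another 131 cells had at least 4 astrocyte markers but were left out for carrying more than 2 oligodendrocyte genes. They had a median of 7601 UMIs and the myelin gene Mbp at 1079. Among the 811 chosen cells, 564 had no UMI of the 6 oligodendrocyte genes, 178 had 1 of the genes and 69 had 2.

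The genes of the rule chose the cells, so their levels are a description. In single-class astrocytes the glutamate transporter Slc1a2 stood at 4863 CPM (4713 to 5016) with a UMI in 92.1% of cells, and the other glial glutamate transporter, Slc1a3, at 3053. The orphan receptor Gpr37l1 stood at 1685, the neurotensin receptor Ntsr2 at 1653, the bicarbonate transporter Slc4a4 at 1595 and the gap junction protein Gja1 at 1245. The receptor Fgfr3 was at 959, the GABA transporter Slc6a11 at 742, the water channel Aqp4 at 737 and the gap junction protein Gjb6 at 647. All 10 genes together made up 17179 CPM in single-class astrocytes, 2186 in other-rule cells, 1741 in oligodendrocyte precursors, and between 268 and 558 in oligodendrocytes, neurons, endothelial cells and microglia. The 4 label markers Slc1a2, Ntsr2, Gpr37l1 and Fgfr3 were each at least 2-fold higher in single-class astrocytes than in each of these 5 classes, and Gpr37l1 came closest in precursors (723).

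The 5 comparison classes were taken from the same sample by their own markers: 71 oligodendrocyte precursors (112011 UMIs), 267 oligodendrocytes, 3520 neurons, 606 endothelial cells and 657 microglia. Cells that also met the mural, choroid plexus, ependymal, neuroblast, fibroblast or erythroid rule stayed in these classes, but not in single-class astrocytes. The endothelial class had 11600 CPM of choroid plexus, 3551 of mural and 2916 of ependymal markers, against 1891, 129 and 72.0 in neurons. A gene was called higher or lower in astrocytes when the 2 levels differed at least 2-fold, with 1 CPM added to each, and the exact binomial interval of their ratio lay beyond 1. Genes needed 10 UMIs in all. Against all 5 classes at once, 361 of 10409 genes (3.47%) were called higher in single-class astrocytes. Over all 811 chosen cells 125 of 14483 genes (0.863%) were, which left 116 without the rule's own genes.

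The 25 genes of at least 100 CPM that led this comparison in single-class astrocytes, ranked by the smallest of their 5 log2 ratios, had a UMI in each of the 4 suffixes, and 15 of them had 0 UMIs in the precursors. None is among the markers of another class. Etnppl, a lyase of phosphoethanolamine, led with 488 CPM (441 to 538). It had 4.73 in oligodendrocytes, 4.62 in neurons, 1.85 in microglia, 0.556 in endothelial cells and 0 UMIs in precursors, so that its level was at least 18.2-fold higher than the floor of 3 counts there. Phkg1, the catalytic subunit of the kinase that activates glycogen phosphorylase, followed with 856 CPM (793 to 921), against at most 10.6 in the other classes with a UMI, and was at least 31.9-fold higher than the floor in precursors. Both genes were thus near 0 in the 5 comparison classes. The next genes covered several known functions of astrocytes. Acsbg1 (408 CPM), which activates long fatty acids, the proline dehydrogenase Prodh (417), the D-aspartate oxidase Ddo (155) and the mitochondrial glutamate carrier Slc25a18 (188) are enzymes and carriers of metabolism. Aldh1l1, the folate enzyme whose promoter is widely used to label astrocytes, stood at 219 CPM (188 to 253). The cystine-glutamate antiporter Slc7a11 stood at 424, the zinc transporter Slc39a12 at 242, the membrane protein Mlc1, which acts in the control of cell volume, at 310, and the tight junction protein Cldn10 at 422. Secreted proteins in the ranking were Itih3 (886), angiotensinogen Agt (358), the chemokine Cxcl14 (328), Gdf10 (292), the protease inhibitor A2m (282) and Lgi4 (397). Parts of 2 developmental signalling pathways were there as well: Gli1, the transcription factor of the hedgehog pathway (122), and the Wnt receptors Fzd2 (116) and Fzd1 (143). Cyp4f15 (189), Entpd2 (156), Fam20a (307), Plcd4 (362) and Atp13a4 (427) completed the 25.

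The same ranking over all 811 cells gave another list. Only Acsbg1, Etnppl, Itih3, Mlc1, Phkg1, Prodh and Slc7a11 stood in both. Its first 4 genes were Tmem212, S100a9, S100a8 and Ccdc153, with 0, 1, 0 and 3 UMIs in all single-class astrocytes. On the marker lists of other classes used here stood 6 of its 25 genes: Ccdc153, Tmem212, Dynlrb2 and Rarres2 of ependymal cells, Dcn of fibroblasts and Cd24a of neuroblasts. S100a9 and S100a8 are on none of these lists, and the cells they came from were not tested. The ependymal markers summed to 3590 CPM in the other-rule cells and to 166 in single-class astrocytes.

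**Figure D2:**
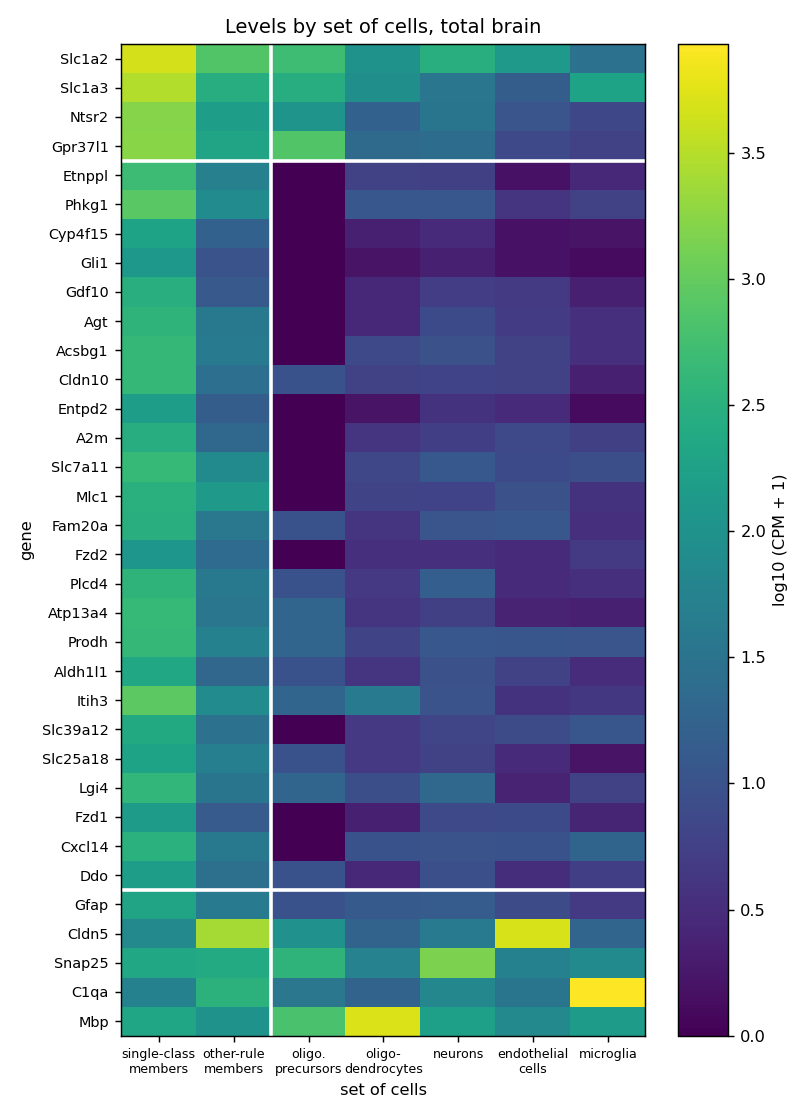
Levels as log10 of CPM + 1 (colour) of 4 rule markers, the 25 leading genes of single-class astrocytes and 5 marker genes of other kinds (rows) in 7 sets of cells (columns). The 25 genes are bright in the first column and dark in the 5 classes on the right; Cldn5 and C1qa are brighter in other-rule cells than in single-class astrocytes.

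Promoter windows of the genes that lead the ranking and of the classical label gene Aldh1l1 are printed to show sequences before a transcript start of genes with this pattern. Each is the 250 bases before the first listed transcript start, 5′ to 3′ on the strand of the gene, from RefSeq on GRCm38.p6. They lie at chr3:130617198-130617447 on the plus strand for Etnppl, chr5:129879089-129879338 on the minus strand for Phkg1 and chr6:90550543-90550792 on the plus strand for Aldh1l1. In the GENCODE annotation Phkg1 spans 129863421 to 129898549 and Aldh1l1 spans 90486427 to 90600203. The windows of Phkg1 and Aldh1l1 thus lie inside these spans, downstream of the outermost start of the gene. Capitals mark a match to the NFI half-site TTGGCA or its other strand TGCCAA.
Etnppl: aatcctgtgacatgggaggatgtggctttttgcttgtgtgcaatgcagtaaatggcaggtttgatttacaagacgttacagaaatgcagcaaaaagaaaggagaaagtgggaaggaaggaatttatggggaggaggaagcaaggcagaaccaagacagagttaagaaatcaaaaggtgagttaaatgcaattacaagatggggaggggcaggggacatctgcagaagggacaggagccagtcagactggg
Phkg1: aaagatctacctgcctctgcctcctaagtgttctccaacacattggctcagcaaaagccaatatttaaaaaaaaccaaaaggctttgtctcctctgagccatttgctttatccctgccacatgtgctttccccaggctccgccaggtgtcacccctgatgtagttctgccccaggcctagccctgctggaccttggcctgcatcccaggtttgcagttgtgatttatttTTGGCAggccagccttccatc
Aldh1l1: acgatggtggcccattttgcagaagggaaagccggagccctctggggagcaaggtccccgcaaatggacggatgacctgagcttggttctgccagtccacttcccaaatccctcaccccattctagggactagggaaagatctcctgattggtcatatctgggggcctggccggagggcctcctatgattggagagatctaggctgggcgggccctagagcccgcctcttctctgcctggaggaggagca
Phkg1 holds 1 match and the other two hold none. Windows were found for 21 of the 25 genes, and 3 of these 21 (Atp13a4, Ddo and Phkg1, 14.3%) hold the NFI half-site, beside 12.5% of 27025 genes. The SOX motif ACAATG, or CATTGT on the other strand, was in 1 of 21 (Atp13a4), beside 11.0% of all genes. Of the 10 rule markers 9 had a window, and neither motif was in them.

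Genes outside the rule that are known from astrocytes were described by lists. Some of the lists share genes with the rule. Another scaling of the libraries (median of ratios) subtracts the median log2 ratio of astrocytes over a class, taken over genes with a UMI in both. For single-class astrocytes it was −0.28 for precursors, 0.73 for oligodendrocytes, 0.01 for neurons, 0.59 for endothelial cells and 0.84 for microglia. For all 811 cells it was −0.42, 0.49, −0.12, 0.33 and 0.60 in that order. The scaling would thus raise the ratios against precursors and lower those against oligodendrocytes, endothelial cells and microglia. The ratios below are of CPM. Over all 811 cells, 16 of 30 such genes were called higher than in precursors and 1 lower, where 9.67% of all genes were higher and 13.9% lower. Against oligodendrocytes 27 were higher and 2 lower (37.8% and 8.64% of all genes), against neurons 29 and 0 (24.1% and 23.6%), against endothelial cells 28 and 0 (27.7% and 2.26%) and against microglia 29 and 1 (38.9% and 10.4%). The median log2 ratios were 1.37, 3.87, 3.25, 2.79 and 4.43 in that order, and 0.13, 0.67, −0.15, 0.33 and 0.66 over all genes. Of the 30 genes, 22 were called higher in single-class astrocytes than in each of the 5 classes (14 over all 811 cells), where 3.47% of all genes were. Among the highest, the protease inhibitor Cst3 stood at 4842 CPM, the metallothionein Mt1 at 2720 and the secreted protein Sparcl1 at 2354. Aldoc, the brain form of aldolase, stood at 1655 CPM in single-class astrocytes, 192 in other-rule cells and between 21.3 and 125 in the other classes. At a depth of 1000 UMIs it was seen in 57.7% of single-class astrocytes, 8.37% of neurons and 3.14% of microglia. Cells below 1000 UMIs were left out of this and later shares at that depth. This left 309 single-class astrocytes, 52 precursors, 198 oligodendrocytes, 2953 neurons and 610 microglia. Slc7a10, a carrier of small neutral amino acids, stood at 1099 and was at 152 in precursors. The other 8 were Cst3, Sparcl1, Bcan, Ntm, Hepacam, S1pr1, S100b and Tril, and several of them were as high or higher in another class. Cst3 was at 47233 in microglia, Bcan, a proteoglycan of the matrix around synapses, was at 2160 in precursors and 2161 in astrocytes, S100b was at 536 in oligodendrocytes and 242 in astrocytes, and the lipid receptor S1pr1 was at 705 in endothelial cells and 706 in astrocytes.

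Of 16 genes of glutamate and GABA uptake and metabolism, 13 were called higher in single-class astrocytes than in neurons and 1 lower, where 14.6% of all genes were higher and 17.7% lower. The median log2 ratio was 3.26, and −0.17 over all genes. Against oligodendrocytes 11 of the 16 were higher, with 36.7% of all genes, and 0 lower (median 4.00, all genes 0.56). The list holds 3 rule genes, Slc1a2, Slc1a3 and Slc6a11. They chose the cells and are counted as higher in both comparisons, so these counts and medians are in part set by the rule. In the order of the pathway, uptake came with Slc1a2, Slc1a3 and Slc6a11 as above. Glutamine synthetase, Glul, which makes glutamine from glutamate, stood at 1349 (1271 to 1431) and at 2410 in oligodendrocytes, a difference of less than 2-fold. Its level in endothelial cells was 813 and in microglia 689, less than 2-fold below. The glutamine carriers Slc38a3 and Slc38a1 stood at 497 and 479. Glutamate dehydrogenase Glud1 (309) was called higher than in each of the 5 classes. Got1, an aspartate aminotransferase, was the member called lower than in neurons. The glycine transporter Slc6a9 stood at 249, and the monoamine oxidase Maob at 14.7, with 12 UMIs.

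Of 18 genes of gap junctions, water and ions, 16 were called higher than in neurons and 0 lower (median log2 ratio 4.19). Among all genes 14.6% were higher, 17.7% lower and the median was −0.17. Of the 18, 10 (55.6%) were higher than in each of the 5 classes, beside 3.47% of all genes. Of these 10, 5 (Gja1, Gjb6, Aqp4, Slc4a4 and Gpr37l1) are rule genes, which chose the cells and are also counted among the 16. Among the others were the sodium pump beta subunit Atp1b2 (1289 CPM), Mlc1, the cation channel Trpm3 (215) and Dtna (1223), which anchors proteins at the endfeet on vessels. The potassium channel Kcnj10 stood at 238 with 214 in precursors and 256 in oligodendrocytes. Its partner Kcnj16 was at 57.4, and at 44.6 in precursors. At 1000 UMIs per cell, Kcnj10 was seen in 18.8% of single-class astrocytes, 18.3% of precursors, 21.2% of oligodendrocytes, and 0.894% of microglia. The carbonic anhydrase Car2 was far higher in oligodendrocytes, at 3516 against 141 CPM.

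Of 26 genes of cholesterol, lipids and apolipoproteins, 23 were called higher in single-class astrocytes than in neurons and 1 lower (median log2 ratio 2.47), beside 14.6% and 17.7% of all genes (median −0.17). Against oligodendrocytes 15 were higher and 3 lower (median 1.10), beside 36.7% and 15.7% of all genes (median 0.56). Apoe, the main lipid carrier of the brain, stood at 9163 CPM (8957 to 9373), close to microglia (8752), and at 254 in neurons. Clu, another lipoprotein, stood at 1437. In the cholesterol pathway the sterol oxidase Msmo1 stood at 635 and was called higher than in each of the 5 classes, while Hmgcs1 (262), Idi1 (109) and Fdps (101) were not called against oligodendrocytes (403, 150 and 165). The fatty acid desaturase Scd2 stood at 1192 in astrocytes and 2868 in oligodendrocytes. The transporter Abca1, which loads apolipoproteins, was at 222, whereas Abcg1 had 4 UMIs, or 4.89 CPM (1.33 to 12.5), with 153 in oligodendrocytes.

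Of 19 genes of glycogen, glucose and lactate, 11 were called higher and 5 lower than in endothelial cells (median log2 ratio 1.83), where 32.2% of all genes were higher and 18.2% lower. The glycogen phosphorylases Pygb (165 CPM) and Pygm (125), the glycogen regulator Ppp1r3c (83.1), the phosphofructokinase Pfkm (229) and Aldoc were higher than in each of the 5 classes. That is 26.3% of the list, beside 3.47% of all genes. With Phkg1 at 856, both phosphorylases and the subunit of their kinase were called in this comparison. The glucose transporter Slc2a1 and the lactate transporter Slc16a1 differed between the sets: they stood at 131 and 51.3 in single-class astrocytes, 1582 and 247 in other-rule cells, and 2733 and 497 in endothelial cells. The lactate dehydrogenase Ldhb stood at 328 and Ldha at 80.7.

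**Figure D3:**
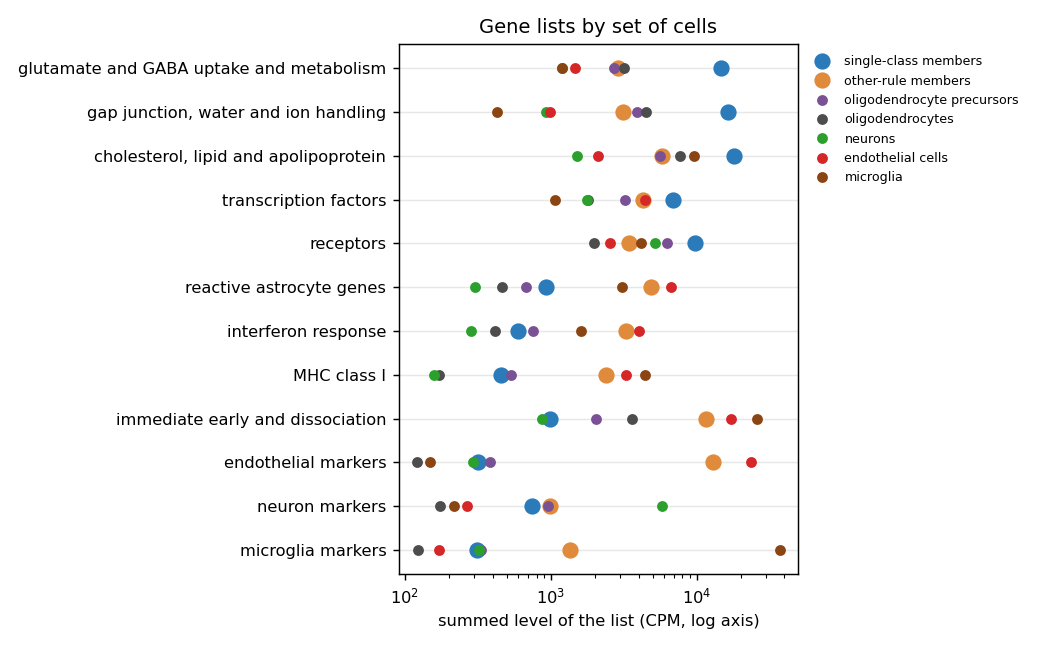
Summed level of 12 gene lists (rows) in 7 sets of cells, in CPM on a log axis, with large points for astrocytes. Single-class astrocytes (blue) lie to the right of the 5 classes for uptake, ion and lipid lists, and to the left of other-rule cells (orange) for the reactive, interferon, MHC class I, immediate early and endothelial lists. The uptake, ion and receptor lists hold rule genes, so their place is in part set by the choice of cells.

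Of 38 receptor genes, 24 were called higher in single-class astrocytes than in neurons and 1 lower, beside 14.6% and 17.7% of all genes. Of 36 with enough UMIs, 13 were higher and 2 lower than in precursors, where 7.81% of all genes were higher and 11.3% lower. The median log2 ratios were 1.78 against neurons and 0.77 against precursors, and −0.17 and −0.02 over all genes. Those higher than in each of the 5 classes were Ntsr2 and Fgfr3 of the rule, Fgfr1 (321 CPM), the BMP receptor Bmpr1b (120) and the hedgehog receptor Ptch1 (535). They are 13.2% of the list, beside 3.47% of all genes. Ntsr2 and Fgfr3 chose the cells, so this share and the counts above are in part set by the rule. The hedgehog factors Gli1, Gli2 (53.8) and Gli3 (105) were also higher than in each of the 5, and the hedgehog signal transducer Smo was at 80.7, with 50.9 in microglia. The AMPA receptor subunit Gria2 stood at 2086, with 3044 in precursors and 2892 in neurons, neither called different. The endothelin receptor Ednrb was at 403 and at 321 in precursors. The adenosine receptor Adora1 stood at 80.7 and at 241 in precursors. The metabotropic glutamate receptor Grm3, the form known from adult astrocytes, was at 90.4 and Grm5 at 30.6, against 433 in neurons. The beta-adrenergic receptor Adrb1 was at 41.5.

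Of 23 genes of synapse-directed secretion, matrix and engulfment, 19 were called higher than in neurons and 1 lower (median log2 ratio 2.62), beside 14.6% and 17.7% of all genes (median −0.17). Of 20 with enough UMIs, 5 were higher and 4 lower than in precursors (median 0.64), beside 7.81% and 11.3% of all genes (median −0.02). Mfge8 (788 CPM), which tags debris for uptake, was the only member called higher than in each of the 5 classes. That is 4.35% of the list, near the 3.47% of all genes. The engulfment receptor Mertk was at 563 and at 385 in microglia, and Megf10 at 126 with 80.3 in precursors and 76.8 in oligodendrocytes. The glypicans Gpc5 and Gpc6 stood at 147 and 192. The matrix protein Sparc was at 645, below endothelial cells (1488) and microglia (2408). Vcan was at 72.1 against 2116 in precursors. The thrombospondins were near the floor: Thbs1 and Thbs2 had 9 UMIs each and Thbs4 had 11.

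Of 30 transcription factors, 25 were called higher in single-class astrocytes than in neurons and 0 lower, with a median log2 ratio of 2.85, beside 14.6% and 17.7% of all genes and a median of −0.17. Of the 30, 12 (40.0%) were higher than in each of the 5 classes, beside 3.47% of all genes. They were Sox9 (216 CPM), Id4 (546), Hes5 (288), Rorb (423), Rfx4 (186), Dbx2 (134), Lhx2 (96.5), Pax6 (167), Otx1 (35.4), Gli1, Gli2 and Gli3. Sox9, a gliogenic factor, had 0 UMIs in precursors, 12.4 CPM in neurons and 20.3 in endothelial cells. Hes5 is a target of Notch signalling. The related Hes1 was at 53.8, and at 141 in endothelial cells. Zbtb20 stood highest, at 1750, with 1152 in precursors. Nfib (574), Nfia (411) and Nfix (199) of the NFI family were also present in other classes, as in endothelial cells with 553 for Nfib and oligodendrocytes with 523 for Nfix. Over all 811 cells, 2 of the 30 were higher than in each of the 5 classes, beside 0.863% of all genes.

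The list of 40 genes of the reactive state summed to 932 CPM in single-class astrocytes and 4839 in other-rule cells, with 679 in precursors, 463 in oligodendrocytes, 301 in neurons, 6712 in endothelial cells and 3097 in microglia. Of 19 with enough UMIs, 12 were called higher and 2 lower than in oligodendrocytes (36.7% and 15.7% of all genes), and, of 31, 11 higher and 2 lower than in neurons (14.6% and 17.7%). Of 30, 6 were higher and 16 lower than in endothelial cells, where 32.2% of all genes were higher and 18.2% lower. Gfap, the filament protein that rises in reactive astrocytes and is high in white matter astrocytes, stood at 198 CPM (169 to 231), and 14.1% of single-class astrocytes had a UMI of it. At 1000 UMIs per cell the share was 10.0%, against 1.23% of neurons and 0.644% of microglia. Gfap and Aspg (50.1) were the 2 members called higher than in each of the 5 classes. That is 5.0% of the list, near the 3.47% of all genes. The complement gene C4b, which is known to increase with age, stood at 219, with 173 in oligodendrocytes. No UMI of Steap4, Timp1, Cxcl10, Gbp2, Slc10a6 or B3gnt5 was found in single-class astrocytes, which allows a level of up to 4.51 CPM each, Lcn2 had 1 UMI, C3 had 3 and Serpina3n had 8. Vim stood at 109 CPM in single-class astrocytes, 705 in other-rule cells and 888 in endothelial cells. Hspb1 and Tm4sf1 showed the same order, with 18.3, 826 and 1704 for Hspb1 and 9.78, 716 and 762 for Tm4sf1.

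Tmem173, the gene of STING and the target of the knockout, had 28 UMIs in the 811 cells (5.71 CPM, 3.79 to 8.25) and 5 UMIs in single-class astrocytes (6.11 CPM, 1.98 to 14.3). By suffix, the 811 cells had 2.75, 4.80, 11.1 and 0.974 CPM of Tmem173. These levels rest on the 28 UMIs, all but 5 of them from other-rule cells, and their counting error is not printed. Since a knockout can leave transcript outside the deleted part, and since suffixes have no genotype in the sources used here, these values check no label. Microglia had 118 CPM, and at 1000 UMIs per cell Tmem173 was seen in 0.666% of single-class astrocytes and 9.73% of microglia. The sensor cGAS, Mb21d1, had 1 UMI in single-class astrocytes. The kinase Tbk1 stood at 50.1 CPM and between 18.3 and 60.4 in the 5 classes, and the transcription factor Irf3 at 136, and between 39.0 and 71.4. Of the 20 genes of the pathway and of DNA sensing, 0 were higher than in each of the 5 classes, beside 3.47% of all genes. Of 19 with enough UMIs, 3 were higher and 7 lower than in microglia (median log2 ratio −0.27), where 37.8% of all genes were higher and 16.8% lower and the median was 0.57. Trex1 and Zbp1 had 0 UMIs in single-class astrocytes.

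Interferon-response genes were lower in single-class astrocytes than in endothelial cells for 26 of 28 genes with enough UMIs and higher for 0, where 18.2% of all genes were lower and 32.2% higher. The median log2 ratio was −3.35, with 0.37 over all genes. They summed to 596 CPM, against 3268 in other-rule cells and 4055 in endothelial cells. Ifitm3 stood at 42.8 against 1033 in endothelial cells, Bst2 at 6.11 against 195. Against neurons 13 of 26 were higher and 0 lower (median 1.12; 14.6% of all genes higher, 17.7% lower). MHC class I genes followed the same order. B2m stood at 89.2 in single-class astrocytes, 732 in other-rule cells, 955 in endothelial cells and 2050 in microglia, and H2-K1 at 191, 518, 731 and 725. Against neurons 3 of the 8 MHC class I genes were higher and 0 lower, beside 14.6% and 17.7% of all genes.

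Immediate early genes, which respond to stimulation and also to the digestion of tissue, differed widely inside the chosen cells. The list of 21 summed to 989 CPM in single-class astrocytes, 11681 in other-rule cells, 876 in neurons, 17096 in endothelial cells and 25862 in microglia. Fos stood at 105 in single-class astrocytes and 1092 in other-rule cells, Jun at 147 and 1499, Klf2 at 28.1 and 1370, and Hspa1a at 22.0 and 741. All 21 were lower in single-class astrocytes than in microglia (median log2 ratio −4.45), where 16.8% of all genes were lower and the median was 0.57. Of the 21, 20 were lower than in endothelial cells (−3.64), where 18.2% of all genes were lower and the median was 0.37. Against neurons 3 of the 21 were higher and 1 lower, beside 14.6% and 17.7% of all genes, so the higher calls were near the share of all genes. The nuclear RNA Malat1 took 94341 CPM of single-class astrocytes, 35017 of other-rule cells, 50526 of neurons and 32552 of endothelial cells, so that single-class astrocytes had a lower immediate early level, a higher Malat1 level and a lower mitochondrial share than other-rule cells. The part of RNA quality or cell integrity in these orders was not tested. In the cell cycle and p53 list, Cdkn1a stood at 63.5 in single-class astrocytes, 457 in other-rule cells and 785 in endothelial cells. Cdkn2a and Cdkn2b, which are used as signs of senescence, had 0 UMIs in single-class astrocytes (up to 4.51 CPM).

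Oligodendrocyte precursors are dividing glial cells that later form myelin. Of 10551 genes, 824 (7.81%) were called higher and 1197 (11.3%) lower in single-class astrocytes. The 8 genes that led on the astrocyte side had 0 UMIs in precursors: Phkg1, S1pr1, Prex2 (629 CPM), Fam107a (601), Etnppl, Slc7a11, Acsbg1 and Fxyd1 (401), a regulator of the sodium pump. On the other side stood the growth factor receptor Pdgfra, with 2196 in precursors and 3.67 in astrocytes, Pcdh15 with 1143 and 4.89, Neu4 with 562 and 2.44, and Nxph1, Sntg1, Top2a, Amz1 and Snx22, which had 0 UMIs in single-class astrocytes. Pdgfra, Pcdh15 and Neu4 chose the precursors and Top2a is on the list of neuroblasts and stem cells. The receptor-type phosphatase Ptprz1 was high in both, with 1825 in astrocytes and 3464 in precursors. The 71 precursor cells make 1 UMI worth 8.93 CPM, so genes near that level could not be compared.

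Against oligodendrocytes, 4320 of 11782 genes (36.7%) were called higher and 1855 (15.7%) lower. Higher were Npy, Gsdme (244 CPM), Ptprz1, Etv4 (292), Agt, Mybpc1 (127), Btbd17 (426) and Lfng (335). Lower were Adssl1, Tmem125, Insc, Ninj2 and Bfsp2 with 0 UMIs in single-class astrocytes, and Ppp1r14a (8.55 against 1388), Phlda3 and the myelin protein Mal (48.9 against 4842). Against neurons, 2258 of 15483 genes (14.6%) were higher and 2744 (17.7%) lower. Itih3, Etnppl, Slc7a10, Atp13a4, Phkg1, Tlcd1 (379), Mertk and Cldn10 led on the astrocyte side, and Kcnh7, Nwd2, Dlgap2, Lingo2, Ankrd33b, Atcay, Vwa5b2 and Dlk2 on the other, each with 5 UMIs or fewer in single-class astrocytes. The summed markers of neurons reached 747 CPM in single-class astrocytes and 5752 in neurons, those of endothelial cells 318 and 23532 in their own class, and those of microglia 314 and 37076. Ttr, the main transcript of the choroid plexus, stood at 882 in single-class astrocytes, 821 in precursors, 596 in oligodendrocytes, 1825 in neurons, 1660 in microglia and 11459 in endothelial cells. Hbb-bs of red cells stood at 628 in single-class astrocytes, 482 in precursors and between 4087 and 20117 in the other 4 classes. The parts of free RNA, and of cells in these classes that met the choroid plexus or erythroid rule, were not tested.

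Regional identity was described with selector genes, which were transcription factors except for angiotensinogen (Agt). Lhx2 and Emx2 mark the telencephalon, and Irx2, Irx3 and Irx5, together with angiotensinogen, mark regions behind it. Of the 433 single-class astrocytes, 46 had a UMI of the telencephalic set and none of the other, 127 the reverse, 14 had both and 246 had neither. The median depth was 2097 UMIs in the telencephalic and 1648 in the non-telencephalic cells. Between the groups, 291 of 7432 genes (3.92%) were called higher in telencephalic and 427 (5.75%) in non-telencephalic selector cells. Of 28 region readouts that are no selectors, 24 had 10 UMIs, and 5 were higher in telencephalic and 12 in non-telencephalic cells. The median log2 ratio of telencephalic over non-telencephalic was −1.39 over the readouts and −0.05 over all genes.

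In telencephalic selector cells Slc1a2 stood at 6805 CPM (6358 to 7274) and in non-telencephalic cells at 3157 (2951 to 3373). Mfge8 stood at 1394 and 474, and Gfap at 378 and 127. On the other side, Sparc stood at 102 in telencephalic and 1358 in non-telencephalic cells, Itih3 at 181 and 1408, the GABA transporter Slc6a11 at 551 and 1329, Gdf10 at 15.8 and 550, and the glycine transporter Slc6a9 at 47.3 and 424. Slc1a2 and Slc6a11 are rule genes. Pax3, a dorsal patterning factor, had 0 and 53 UMIs, which made it at least 8.12-fold higher in non-telencephalic cells. Zic4 was at 47.3 and 210.0 and Zic1 at 55.1 and 159, with 6 and 7 UMIs in telencephalic cells. Zic2 (7.88 and 39.8) and Zic5 (78.8 and 83.3) were not called. Aldoc, Slc7a10 and Bcan differed by less than 2-fold: Aldoc stood at 2347 and 1738, Slc7a10 at 795 and 1177, and Bcan at 2418 and 1691. Other general astrocyte genes were called, as Cst3 (9301 and 3797) and Dio2 (307 and 39.8) on the telencephalic and Fabp7 (158 and 992) on the other side. The call of Mt3 turned between the sets: it stood at 2394 and 1195 in single-class cells, and over all 811 cells it was called higher in non-telencephalic cells. Zic1 (130 and 133), Zic4 (42.7 and 85.5), Slc6a11 (220 and 323) and Cst3 (4554 and 2546) were not called over all 811 cells. Slc1a2, Mfge8, Gfap, Sparc, Itih3, Gdf10, Slc6a9, Pax3, Dio2 and Fabp7 kept their calls there. Among the 6 readouts looked at by suffix, Mfge8 was higher in telencephalic cells in 4 of 4 suffixes, and in 0 of 4 for Itih3, Slc6a9 and Zic1. Gfap was higher in telencephalic cells in 3 suffixes and Slc6a11 in 2. These counts rest on few cells: 4 telencephalic and 5 non-telencephalic in suffix 1, and 4 and 14 in suffix 2. In suffix 1 Slc6a9 had 0 and 2 UMIs, and in suffix 2 it had 1 and 3 (49.0 and 51.0 CPM). Zic1 had 0 and 8 UMIs in each of these suffixes.

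The genes that led the telencephalic side were Crym, Ptprt, Dapp1, Epha5, Otx1, Noct, Fam13c and Hadh, and on the other side Npy, Pax3, Mybpc1, Gnb4, Dao, Ier2, Lgr6 and Frzb. Some rest on 1 cell: 189 of the 308 UMIs of Npy in single-class astrocytes, 40 of the 90 of Crym, 29 of the 42 of Ier2 and 12 of the 27 of Frzb came from 1 cell each. Over all 811 cells, where 8.15% of 13043 genes were called higher in telencephalic and 7.41% in non-telencephalic cells, the first non-telencephalic genes were Ccdc153, S100a9, S100a8 and Meig1, each with 0 UMIs in the single-class non-telencephalic cells.

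**Figure D4:**
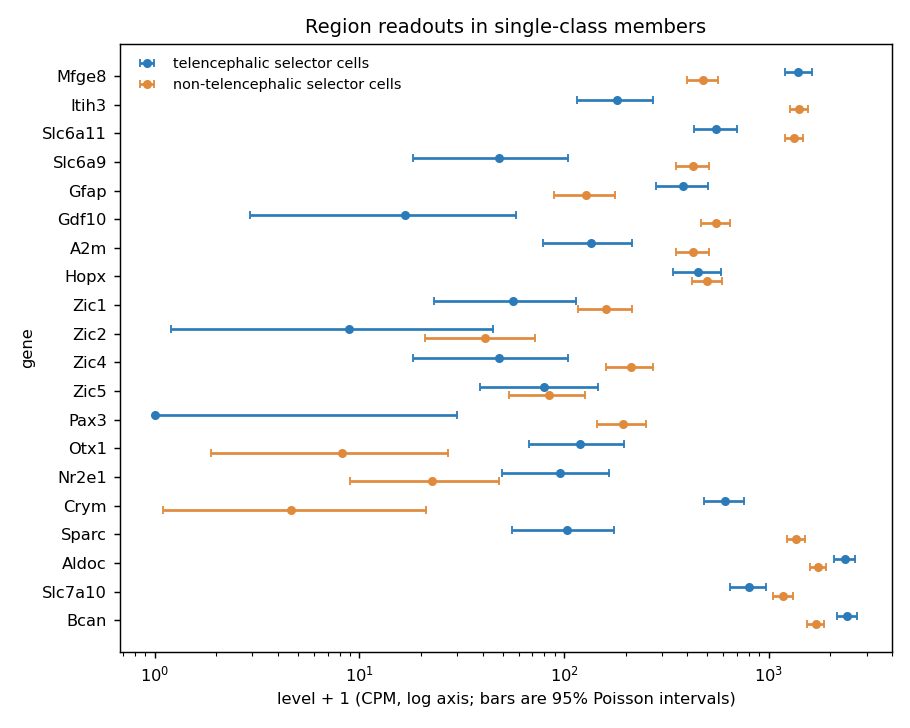
Level + 1 in CPM on a log axis of 20 genes (rows) in the 46 telencephalic (blue) and 127 non-telencephalic (orange) selector cells among single-class astrocytes, with exact Poisson 95% intervals. Mfge8, Gfap, Otx1 and Crym lie to the right in telencephalic cells, Itih3, Gdf10, Slc6a9, Pax3 and Sparc in non-telencephalic cells, and Aldoc, Slc7a10 and Bcan lie close together.

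The 4 suffixes held 1092, 1472, 3644 and 3159 kept cells and 69, 87, 354 and 301 of the chosen cells, or 6.32%, 5.91%, 9.71% and 9.53%. The single-class share was 2.11% (1.34 to 3.14), 3.46% (2.59 to 4.53), 5.35% (4.64 to 6.13) and 5.19% (4.44 to 6.02). Suffix 3 lay above suffixes 1 and 2 beyond counting error, whereas the intervals of suffixes 2 and 4 overlapped. In suffix 1, 66.7% of the chosen cells met another rule, and in the other 3 suffixes 41.4% to 45.5%. Over all 811 cells 2395 of 14461 genes (16.6%) differed at least 2-fold between the highest and lowest suffix with intervals apart, and 27.1% of 1909 genes of at least 100 CPM did. Of 9977 genes, 1049 (10.5%) differed by the same measure in single-class astrocytes, and 31.8% of 1984 genes of at least 100 CPM did. Of the 25 leading genes 13 did (52.0%).

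Apoe stood at 16434, 16820, 6001 and 7960 CPM in suffixes 1 to 4. Aldoc stood at 2427, 2693, 1370 and 1375, Gpr37l1 at 2682, 2547, 1323 and 1529, and Gdf10 at 766, 633, 196 and 170. In these 4 genes suffixes 1 and 2 lay above suffixes 3 and 4 with no overlap of intervals. Fgfr3 ran the other way, with 511, 444, 1090 and 1119, and so did Phkg1, with 511, 226, 907 and 1132. Slc1a2 stood at 6748, 3617, 5209 and 4770. Mt1 was highest in suffix 2, with 4658 against 2053 to 3023. The 10 genes with the largest ratio were Crym, Pmepa1, Tnk2, Npy, Ngef, Ywhaz, Fam228a, Plekhm2, Taok2 and Usp7, and in 3 of them over 33% of the UMIs came from 1 cell. Gfap did not separate the suffixes (128, 240, 214 and 173). Female Xist stood at 2278, 1783, 1870 and 2305 and the Y-linked gene Ddx3y at 106, 80.1, 115 and 67.3, so that RNA of both sexes was in every suffix. Suffix 1 held 23 single-class cells and 46976 UMIs. Whether age, genotype or handling lies behind these differences cannot be told apart here.

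**Figure D5:**
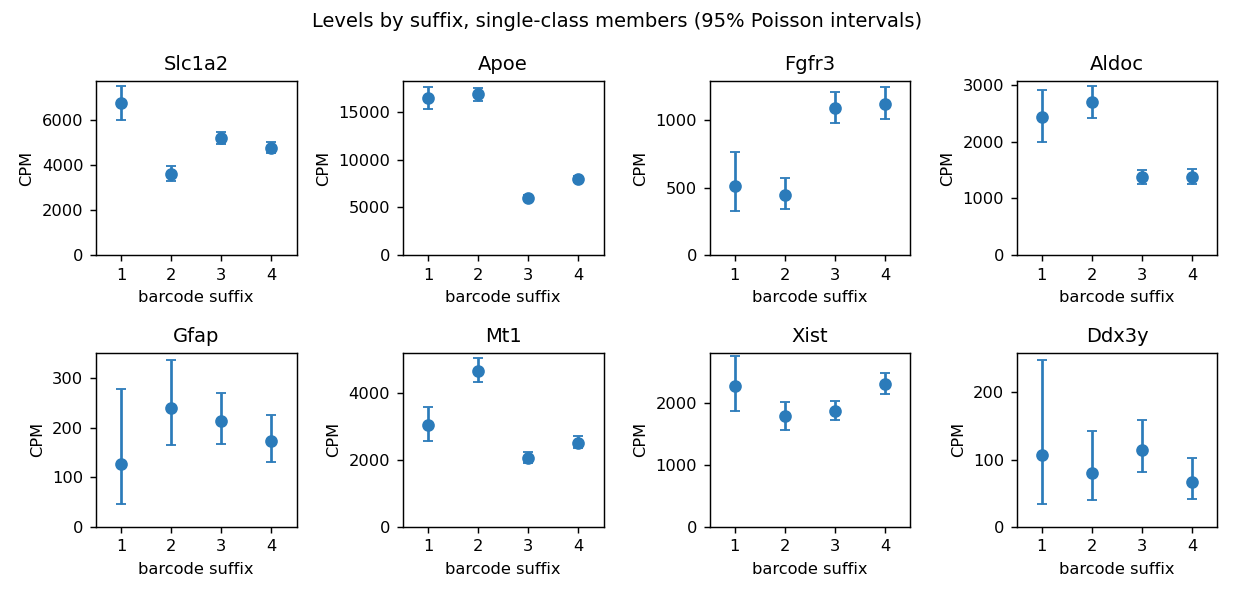
Levels in CPM of 8 genes in single-class astrocytes of barcode suffixes 1 to 4, with exact Poisson 95% intervals and axes that start at 0. Apoe and Aldoc are higher in suffixes 1 and 2 than in suffixes 3 and 4, and Xist and Ddx3y were found in each of the 4.

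In the sorted brain sample the same rule held for 32 of 10076 cells (0.318%, 0.217 to 0.448), of which 11 met another rule. The 21 single-class cells held 28321 UMIs, with Slc1a2 at 2048 CPM, Aldoc at 5190, Gfap at 388 with 11 UMIs and Ttr at 12888. The labels used here do not state how the sort was gated, and the samples differ in age and sex as well, so these values stand beside those of total brain without a comparison. Of the 14674 barcodes of total brain, 46 had a sequence that occurs in another suffix and 5 one that occurs in the sorted sample. Among the 811 cells these were 2 and 0.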

How the data were processed

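The files hold UMI counts per gene and barcode, made by the authors with Cell Ranger 3.0.2 on mm10, per the submitters' processing notes. The deposited matrix of total brain carries software version 3.1.0 in its header and that of sorted brain 3.0.2, per the file headers. Of 14674 barcodes in total brain, 63.8% were kept, with a median of 1692 UMIs. The members and gene lists were chosen with earlier results of these data known. Counts were summed over the cells of a set and scaled to 1000000 UMIs (CPM), with exact Poisson intervals for levels, Clopper-Pearson intervals for shares and exact binomial intervals for ratios, all covering counting error only. Log2 ratios are of CPM + 1. Comparison classes were unchosen cells with at least 4 markers of 1 of the 5 classes, leaving out cells that met 2 of these rules. Cells of these classes that met a further rule, such as the mural or choroid plexus rule, were not left out. Genes were named by rank of log2 ratio among those of at least 100 CPM in the higher set (50 CPM for selector cells), leaving out rule genes, mitochondrial genes and unnamed gene models. List members were named as examples, some after their values were seen. Some genes are not reported here, and 1 of them was taken out of the planned telencephalic selector rule after its values had been seen. No doublet caller was run, and no test was made because there was 1 sample. The calling code was tested on simulated data. Python 3.11.15, numpy 2.4.6, scipy 1.17.1 and pandas 2.3.3 were used.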

Additional observations from a re-analysis of the deposited data

How the results depend on the processing

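No paired analysis was possible because there was 1 total brain sample and its suffixes carry no group. The alternatives that left out members of any other class rule, thinned each cell or weighted cells equally were chosen after seeing the data.

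The share of chosen cells, 8.66%, was 12.5%, 6.47% and 5.22% with at least 3, 5 and 6 markers, 7.92% with at most 1 oligodendrocyte marker, 4.89% without cells of 4 other class rules, 4.62% without those of any other rule and 6.10% after thinning. Leaving out 1 suffix gave 7.99% to 9.17%.

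The summed level of astrocyte genes outside the rule, 17255 CPM over all 811 cells, was 19294 with a looser filter (200 genes, 20% mitochondrial UMIs) and 18245 with a stricter one (1000 genes, 5%). It was 15001, 20351 and 22221 with at least 3, 5 and 6 markers, 18249 with at most 1 oligodendrocyte marker, 33656 without cells of 4 other rules and 37485 without those of any. Equal weight per suffix gave 19837, equal weight per cell 24149, thinning 28769, and leaving out mitochondrial and ribosomal genes 19298. Leaving out 1 suffix gave 16219 to 18580.

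Over all 811 cells, 1405 genes were higher than in precursors. This was 396 with the stricter filter, 824 without cells of any other rule and 2118 with median-of-ratios scaling. The balance of higher and lower genes against precursors turned with that scaling, from 1405 and 2017 to 2118 and 1223, and that against neurons turned from 3983 and 3889 to 2258 and 2744 without cells of any other rule. With the scaling, higher and lower genes went from 5599 and 1279 to 4189 and 2208 against oligodendrocytes, from 4163 and 340 to 3375 and 882 against endothelial cells, and from 5917 and 1588 to 4094 and 2616 against microglia. Erythroid markers, 5 of 5 higher than in neurons over all 811 cells, were 5 of 5 lower in the 433. Against oligodendrocytes 5599 genes were higher, and 3260 with 10 CPM added. Against neurons 3983 were, and 2292 with the stricter filter, 2258 without cells of any other rule and 2356 with 10 CPM added. The 116 genes higher than in each of the 5 classes became 211 with the looser filter, 47, 179 and 209 with at least 3, 5 and 6 markers, 474 without cells of 4 other rules and 351 without those of any. Selector cells differed in 2029 genes, and in 720 with the stricter filter, 718 without cells of any other rule, 1341 with 10 CPM added and 1240 with at least 50 UMIs. Suffixes differed in 2395 genes, and in 1116 with the stricter filter and 1049 without cells of any other rule. The cause of these moves was not tested. The 71 precursors and the 46976 UMIs of suffix 1 limit what could be seen in low genes.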
